A study of Mus musculus with 8 samples.

Results

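The mitochondrial ribosome was described here through its nuclear genes, taken as every gene symbol that begins with Mrpl or Mrps followed by a number. The rule found 78 genes among the 24732 genes of the table, 53 of them with a single transcript entry, and all 78 were expressed highly enough to be tested. The proteins are made in the cytosol, imported into mitochondria and assembled with the 12S and 16S rRNA of the mitochondrial genome. The finished ribosome translates the few proteins that mitochondrial DNA encodes, all of them subunits of the respiratory chain and the ATP synthase. It shares no protein gene with the cytosolic ribosome, and many of its proteins have no counterpart in bacteria. The mitochondria of an early embryo come from the oocyte.

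The series concerns RNA polymerase I transcription and chromatin in early embryos and holds 8 Smart-seq libraries of C57BL/6 mouse embryos, 2 in each of 4 groups named 2C, 8C, CX22 and CX45. The labels 2C and 8C are read here as the 2-cell and 8-cell stage. The labels do not spell out CX22 or CX45, name no control, and give no treatment, time, embryo number or age for any group, so all 6 pairs of groups were compared. Nothing in the labels says that libraries of a group came from separate embryos or collections, so the tests measure the spread between these libraries only, which may be technical.

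By role, 30 members are large-subunit proteins with a bacterial homologue and 21 are large-subunit proteins specific to mitochondria. A further 16 are small-subunit proteins with a bacterial homologue and 10 are small-subunit proteins specific to mitochondria. Despite their symbols Mrps18a and Mrps30 were counted in the large subunit, as specific to mitochondria. Mrps18b was counted as specific to mitochondria in the small subunit. Both Mrps18a and Mrps18b are nonetheless relatives of a bacterial protein, as described below. The symbol Mrps36 was kept by the rule, although its protein is now placed in the 2-oxoglutarate dehydrogenase complex rather than in the ribosome.

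Sequences just upstream of 4 members, picked for their level or their role, are printed as examples. Mrpl20 had the largest rise between 2C and 8C, Mrps14 fell, Mrpl12 encodes the flexible stalk protein, and Mrps18a was listed at 0 in both CX22 libraries. Each is the 160 bases before the RefSeq start of the gene in build GRCm38.p6, printed 5′ to 3′, with matches to any of 8 searched motifs in capitals.
Mrpl20, chr4:155802718-155802877, + strand: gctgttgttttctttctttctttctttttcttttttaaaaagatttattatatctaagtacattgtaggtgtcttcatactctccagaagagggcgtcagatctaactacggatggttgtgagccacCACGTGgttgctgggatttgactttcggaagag
Mrps14, chr1:160195055-160195214, + strand: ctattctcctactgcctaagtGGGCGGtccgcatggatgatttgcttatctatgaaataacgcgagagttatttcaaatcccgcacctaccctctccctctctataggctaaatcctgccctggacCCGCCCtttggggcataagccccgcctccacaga
Mrpl12, chr11:120484477-120484636, + strand: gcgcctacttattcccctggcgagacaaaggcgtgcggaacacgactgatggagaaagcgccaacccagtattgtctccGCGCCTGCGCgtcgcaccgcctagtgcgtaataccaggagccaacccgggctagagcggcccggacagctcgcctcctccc
Mrps18a, chr17:46110844-46111003, + strand: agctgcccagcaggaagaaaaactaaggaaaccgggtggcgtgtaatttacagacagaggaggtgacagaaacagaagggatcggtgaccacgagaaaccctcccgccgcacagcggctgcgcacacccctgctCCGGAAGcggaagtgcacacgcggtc
The capitals in Mrpl20 are an E-box that begins 33 bases before the start, and those in Mrps14 are GC-boxes on both strands at 139 and 34 bases. Mrpl12 holds the recognition letters of NRF1, a transcription factor of nuclear genes for mitochondria, at 81 bases. Mrps18a holds an ETS motif, the letters bound by GABP among other factors, at 26 bases. Not every member with a large rise had such a match before its start: the 250 bases before the start of Mrpl21 held none of the 8 motifs. The window searched below runs past the start and did hold the ETS letters in Mrpl21. This gene is therefore counted below among the members with ETS letters.

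RefSeq windows from 250 bases before to 50 bases after a start were found for 69 of the 78 members, 75 windows in all, and were searched on both strands. The motifs were those of NRF1 and ZNF143, known by name, the ETS letters CCGGAAG, and AAGATGGCG for the factor YY1. Also searched were CACGTG, the E-box, and GGGCGG, the letters of the GC-box. The list was completed by CCAAT, known as the CCAAT-box, and by TGACGTCA for CRE. None of the 8 holds another one whole, though matches may share bases. The ETS letters stood in 34.7% of member windows, in 36.8% of windows of cytosolic ribosomal protein genes, in 17.3% of windows of all genes tested and in 8.86% of all windows. The NRF1 letters stood in 17.3% of member windows, 7.35% of cytosolic ribosomal windows, 9.65% of windows of genes tested and 4.6% of all windows. For YY1 the shares were 10.7%, 7.35%, 2.95% and 1.4%. Both kinds of ribosome thus shared the ETS letters at a similar rate, and the NRF1 share was higher among the mitochondrial genes. The remaining shares among members were 9.33% for the E-box, 52% for the GC-box, 40% for CCAAT, 2.67% for CRE and 0% for ZNF143, against 10%, 58.7%, 39.4%, 3.17% and 0.643% of windows of genes tested. Members with and without these letters rose in similar shares between 2C and 8C: 8 of 13 members with NRF1 letters rose and 32 of 56 without. For ETS the counts were 15 of 26 and 25 of 43, and for YY1 5 of 8 and 35 of 61. A match is a run of letters and was not tested as a binding site.

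Values are FPKM, fragments per kilobase of transcript and per M mapped fragments, which is a level per length within 1 library. RNA per embryo was not measured, and fewer cells and less RNA per cell cannot be told apart. The depth implied by steps in low FPKM values was 9.78 to 20.3 M fragments, at which 3 fragments on a transcript of 1 kb give 0.148 to 0.307 FPKM, counting error alone. The 2C libraries differed by close to sampling noise (median chi-square 1.04 times that of chance, where 8C gave 31.9, CX22 99.1 and CX45 54.8) and were counted as 1 sample. CX22 stood apart in its spread: 333 genes passed 10 FPKM in one of its libraries while the other listed them at 0, and 3 were members. The like counts were 7 for 2C, 16 for 8C and 48 for CX45. Gapdh was listed at 0 in 4 libraries and reached at most 0.519 FPKM, so a value of 0 is given as listed and not as absence.

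Markers bear on what each group holds. The 2-cell markers summed to 488.2 and 501.5 FPKM in 2C and to 12.7 and 15.7 in 8C. They summed to 712.8 and 572.8 in CX22 and to 85.2 and 841.4 in CX45. The sum in CX45 replicate 2 was carried by Tcstv1, Tcstv3 and Zfp352, at 289.4, 253.5 and 178.8. Zscan4c, Zscan4d, Zscan4f and Usp17la lay below both 2C libraries in both CX45 libraries. Tdpoz4 went the other way, at 0.972 and 0.699 in 2C, 11.7 and 73.7 in CX45, and 9.15 and 9.57 in 8C. The CX45 values of the remaining markers lay on both sides of the 2C values. In the fit 8 of 9 of these markers were lower in CX45 than in 2C, 0 of them called. Against 8C all 9 were higher in CX45, with a median of 2.82, of which 0 were called and 7 had an unadjusted p under 0.05. The 8-cell markers had sums of 69.9 and 72.1 in 2C, and of 1351 and 1701 in 8C. Their sums were 77.1 and 67.4 for CX22 and 949.8 and 1226 for CX45. The labels of 2C and 8C thus matched the sums of their markers. Maternal oocyte markers summed to 3356 and 3332, 25.8 and 29.9, 2227 and 3091, and 149.6 and 187.8 in the same order. By these sums CX22 was nearer to 2C on all 3 lists, and CX45 was nearer to 8C on the 8-cell and oocyte lists. The 8-cell sums are mostly Dppa2 and Dppa4, and not every marker followed them. Pou5f1 was at 0.252 and 0 FPKM in 2C, at 7.78 and 16.2 in 8C and at 0 and 2.16 in CX45. Krt8 was at 0.323 and 0.474, 5.77 and 6.45, and 1.46 and 0 in these groups. Of the 8 markers, 7 were lower in CX45 than in 8C, with a median of -1.10, of which 0 were called and 4 had an unadjusted p under 0.05, while 5 rose in CX45 against 2C. All 9 oocyte markers tested were higher in CX45 than in 8C, with a median of 1.52. Of these 0 were called and 4 had an unadjusted p under 0.05. Among all 11873 genes tested 7649 were higher in CX45 than in 8C, 1778 of them at that threshold.

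The members were low in 2C and CX22 and high in 8C and CX45. The median member stood at 11 and 12.7 FPKM for 2C and at 69.2 and 66 in 8C. It stood at 10.6 and 10.8 in the CX22 pair, and CX45 gave 60.1 and 62.3. The number of members at 10 FPKM or above was 72 and 70 in 8C and 68 and 69 in CX45, but 43 in each 2C library and 40 and 41 with CX22. Members listed at 0 numbered 8 and 5 in 2C, and 14 and 9 in CX22, and 0 in each of the 4 other libraries. The 4 listed at 0 in both 2C libraries were Mrpl19, Mrpl39, Mrps5 and Mrps10. The middle 50% of members spanned 2.51 and 2.55 on the log2(FPKM + 1) scale in 2C and 2.11 and 1.92 in 8C, so members lay closer together at the higher level. Across the 78 genes, which are not independent replicates, log2 levels in the 2C libraries correlated with those in CX22 at r = 0.731 to 0.811 and with those in 8C at 0.356 to 0.415. Levels in 8C correlated with those in CX45 at 0.887 to 0.924.

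**Figure D1:**
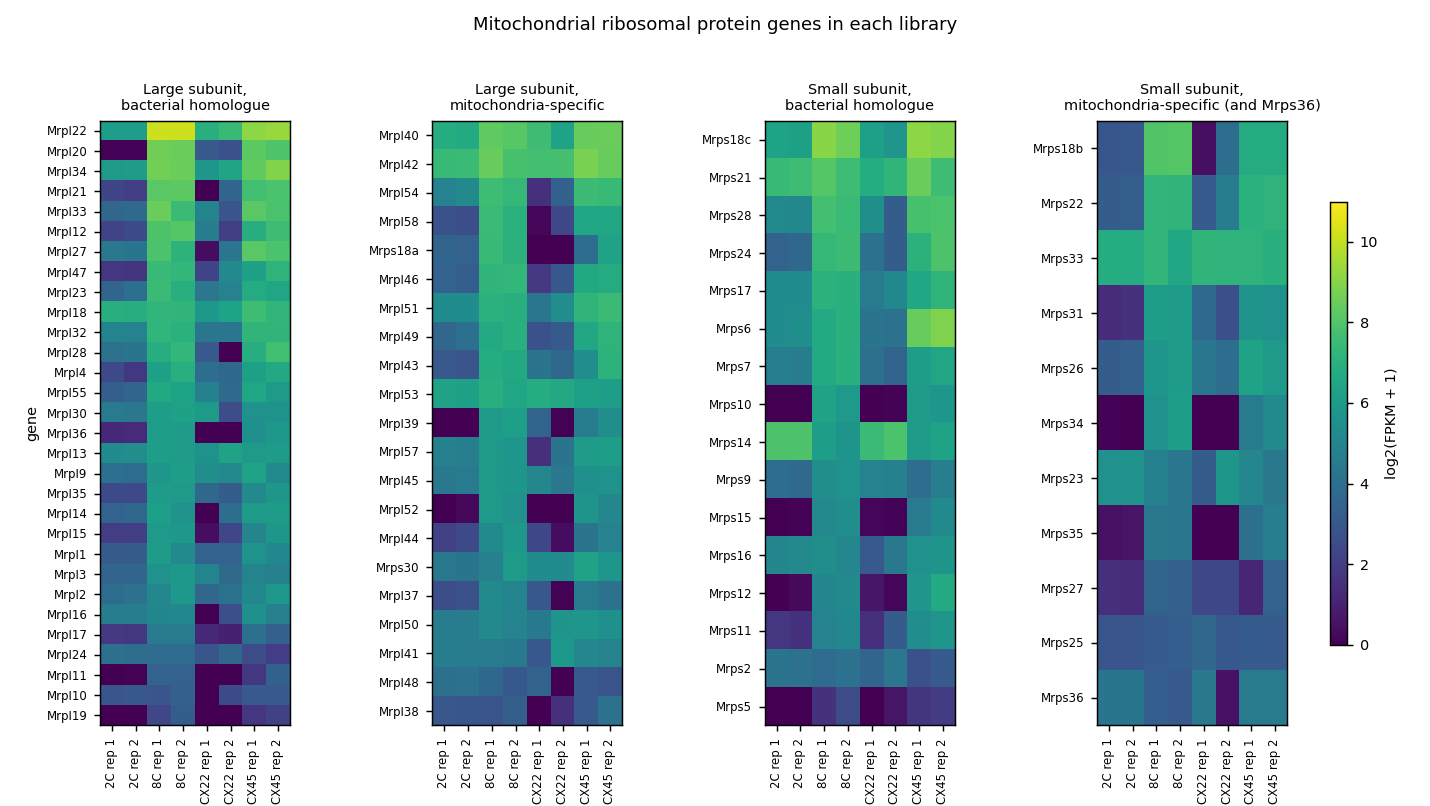
Level of each of the 78 members (rows, by role and then by mean level in 8C) in each of the 8 libraries (columns), as log2(FPKM + 1) in colour. The 8C and CX45 columns are bright for most rows and the 2C and CX22 columns dark, and Mrps14 runs the other way.

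The members' levels differed widely within a library. The highest means over the groups belonged to Mrpl22, which lines the exit tunnel of the large subunit, then Mrps18c, Mrpl42, Mrpl34 and Mrpl40. Mrpl22 was listed at 70.6 and 68.3 FPKM in 2C, at 1160 and 1159 in 8C, at 120.9 and 168.9 in CX22, and at 553.5 and 621.7 in CX45. It was the highest member in both 8C libraries and in CX45. The lowest means belonged to Mrps5, Mrpl19, Mrpl11, Mrps27 and Mrpl10. Mrps5, a small-subunit protein with a bacterial homologue, was listed at 0 and 0 in 2C, at 1.95 and 4.71 in 8C, at 0 and 0.518 in CX22, and at 2.28 and 2.80 in CX45. Its highest value was thus below the 2C level of the median member. Of the 5 lowest, Mrpl10, Mrpl11, Mrpl19 and Mrps5 have bacterial homologues and Mrps27 does not.

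The comparison of 8C with 2C follows the embryo across cleavage. Of the 78 members 45 rose, 1 fell and 32 did not pass the test, while 16.3% of all 11873 genes tested rose and 20.7% fell (37.1% called). The median member was 2.45 higher on the log2(FPKM + 1) scale, against -0.04 for all genes tested. Values of 8C lay above both 2C values for 66 members, below for 7 and across them for 5, against 43.2% and 46.6% of all genes tested above and below. A call here is a Benjamini-Hochberg adjusted p under 0.05 in limma over all genes tested and a difference of at least 1 on the log2(FPKM + 1) scale. Every adjusted p below is from that fit. Genes entered it at 1 FPKM or more in at least 2 libraries. Mrpl11, Mrpl19, Mrpl52, Mrps5, Mrps10, Mrps12, Mrps15, Mrps34 and Mrps35 were under 1 FPKM in every 2C and CX22 library. They passed through 8C and CX45 alone, so a call against 2C or CX22 could only put the 8C or CX45 side higher. All are among the 45 risen, and nothing is read from the direction of their calls.

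Large-subunit proteins with a bacterial homologue held the largest rise. Mrpl20, an early-binding protein in bacterial assembly, on chromosome 4 at 155176987 to 155182940 in mm9, was listed at 0.0736 and 0.0689 FPKM in 2C. It stood at 396.3 and 361.9 in 8C, at 7.33 and 5.77 in CX22, and at 298.1 and 249.6 in CX45. Its 8C and CX45 values lay far above every value of the other groups, and the upstream sequence of this gene is the one with the E-box above. The rise from 2C to 8C was 8.47 ± 0.28 (SE; 8C n = 2, 2C counted as 1 sample; adjusted p = 0.00194). Of the 30 genes of this class 20 rose and 10 did not pass, with a median of 2.84.

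Mrpl21 was listed at 3.86 and 3.04 in 2C, at 290.4 and 295.3 in 8C, at 0 and 11.1 in CX22, and at 204.3 and 235.8 in CX45. It was low in 4 libraries and high in the other 4, with no overlap, and rose by 6.05 ± 1.46 (adjusted p = 0.0332). Mrpl36, a small zinc-binding protein, was listed at 1.38 and 1.47, 71.1 and 66.2, 0 and 0, and 45.2 and 57.4 in 2C, 8C, CX22 and CX45. It rose by 4.84 ± 0.35 (adjusted p = 0.00227). Mrpl22 rose by 4.04 ± 0.29 (adjusted p = 0.00222) and Mrpl34 by 2.55 ± 0.40 (adjusted p = 0.0112). Mrpl2 and Mrpl3 build the region around the peptidyl transferase centre. Mrpl3 rose by 2.11 ± 0.53 (adjusted p = 0.0381). Mrpl2, at 13.6 and 16.5 in 2C and 33.9 and 57.9 in 8C, differed by 1.49 ± 0.52 without passing (adjusted p = 0.0838).

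The 3 stalk genes had separate patterns. The stalk recruits translation factors: Mrpl12 forms the flexible arm, Mrpl10 anchors it and Mrpl11 sits at its base. Mrpl12 was listed at 3.73 and 4.60 in 2C, at 241.3 and 272.6 in 8C, at 23.9 and 3.12 in CX22, and at 115.2 and 188.8 in CX45. It rose by 5.64 ± 1.10 (adjusted p = 0.0193) and its 8C level was the highest of the 3. Mrpl11 was listed at 0 and 0.054, 10.1 and 10.1, 0 and 0, and 2.39 and 9.54 in the same order, and rose by 3.43 ± 0.77 (adjusted p = 0.0275). Mrpl10 was listed at 6.42 and 6.83 in 2C, at 6.53 and 9.27 in 8C, at 0 and 4.47 in CX22, and at 7.29 and 7.46 in CX45. Its 2C and 8C values overlapped and the difference was 0.21 ± 1.08 (adjusted p = 0.901). By listed FPKM Mrpl10 was thus the highest of the 3 in 2C and the lowest in 8C, where it was close to Mrpl11 in replicate 2. In CX45 it was above Mrpl11 in replicate 1 and below it in replicate 2. The order of the 3 genes was not tested.

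Of the 21 large-subunit genes specific to mitochondria 8 rose and 13 did not pass, with a median of 1.64. Mrpl39 was listed at 0 in both 2C libraries and at 59.9 and 72.2 in 8C (adjusted p = 0.0334), and CX22 gave 10.7 and 0.0447. Mrpl52 was listed at 0 and 0.189 in 2C and 58.7 and 45.8 in 8C, a rise of 5.59 ± 0.45 (adjusted p = 0.00266). Mrpl58 encodes a peptidyl-tRNA hydrolase that frees stalled ribosomes. It was listed at 5.75 and 5.19 in 2C and 180.5 and 131.1 in 8C, and rose by 4.58 ± 0.93 (adjusted p = 0.0214). Mrpl45, which lies at the exit tunnel and binds the inner membrane, rose by 1.40 ± 0.38 (adjusted p = 0.0432). Mrpl44, related to RNase III enzymes, was listed at 3.39 and 4.43 in 2C and 36.4 and 57.6 in 8C but missed the threshold (3.25 ± 0.93, adjusted p = 0.0506). Mrpl37 likewise differed by 2.44 ± 1.22 without passing (adjusted p = 0.177). Mrpl42, the most abundant gene of the class by its mean, was listed at 172.8 and 179.6 in 2C and 350.2 and 224.8 in 8C (0.67 ± 0.36, adjusted p = 0.2).

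Among the 16 small-subunit genes with a bacterial homologue 11 rose, 1 fell and 4 did not pass, with a median of 2.10. Mrps10 was listed at 0 in both 2C libraries, at 79.0 and 60.6 in 8C, at 0 and 0.0811 in CX22, and at 65.0 and 54.1 in CX45 (adjusted p = 0.00196 for 8C against 2C). Mrps12, the homologue of the bacterial protein at the decoding centre, was listed at 0 and 0.224, 31.9 and 37.3, 0.579 and 0.121, and 52.5 and 105.8 in the same order. It rose by 4.99 ± 0.56 (adjusted p = 0.00515), and both genes stood near 0 in 4 libraries. Mrps7, a head protein that contacts rRNA, rose by 2.15 ± 0.36 (adjusted p = 0.0131), from 25.6 and 24.7 to 105.1 and 126.4. Mrps2 was listed at 17.6 and 16.6 in 2C and 13.2 and 16.1 in 8C and did not pass (-0.22 ± 0.47, adjusted p = 0.746).

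Mrps14 was the member that fell. Mrps14, a protein of the small subunit's head, on chromosome 1 at 162125346 to 162131317 in mm9, was the highest member in both 2C libraries, at 244.1 and 244.0 FPKM. It was listed at 69.6 and 51.5 in 8C, at 181.3 and 238.7 in CX22, and at 62.8 and 81.1 in CX45. All 4 values of 2C and CX22 lay above all 4 of 8C and CX45. It fell by 2.01 ± 0.34 on the log2(FPKM + 1) scale between 2C and 8C (adjusted p = 0.0138).

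Of the 10 small-subunit genes specific to mitochondria 6 rose and 4 did not pass, with a median of 3.22. Mrps34 was listed at 0.0926 and 0 in 2C and 45.9 and 67.7 in 8C, and rose by 5.76 ± 0.52 (adjusted p = 0.00338). Mrps22 was listed at 8.56 and 8.71 in 2C and 149.9 and 147.6 in 8C, and rose by 3.96 ± 0.64 (adjusted p = 0.012). Mrps27, an RNA-binding protein, was listed at 1.85 and 1.60 in 2C and 10.5 and 9.34 in 8C without passing (2.00 ± 1.01, adjusted p = 0.179).

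A set of 3 genes encodes relatives of the bacterial protein S18, each placed at its own site of the ribosome. Mrps18c was listed at 81.2 and 75.2 in 2C, at 534.7 and 384.8 in 8C, at 73.3 and 52.8 in CX22, and at 552.4 and 500.1 in CX45. Mrps18b was listed at 6.75 and 6.88, 257.1 and 273.1, 0.36 and 14.6, and 107.6 and 106.6. Mrps18a was listed at 10.6 and 9.91, 171.8 and 134.8, 0 and 0, and 14.9 and 80.7. All 3 rose from 2C to 8C, by 2.52 ± 0.34 (adjusted p = 0.00777), 5.09 ± 1.43 (adjusted p = 0.0487) and 3.77 ± 1.00 (adjusted p = 0.042), and Mrps18c stood highest in every library. The CX45 values of Mrps18a lay between those of 2C and 8C and differed widely from each other.

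The calls of Mrpl20, Mrpl22, Mrpl36, Mrpl52, Mrps10, Mrps12, Mrps34 and Mrps18c held under each of 15 other settings or left-out libraries. In what follows, without either library means that each was left out in turn. Leaving out an 8C library left 17 members called (without replicate 1) or 15 (without replicate 2), all 17 and all 15 among the 46 and all risen. The other rises named above and the fall of Mrps14 lost their call without either 8C library, except that Mrpl19 (adjusted p = 0.0173, listed at 0 in 2C) lost it only without replicate 2, at 0.0515. Those of Mrpl3, Mrpl12, Mrpl21, Mrpl39, Mrpl45, Mrpl58, Mrps5 and Mrps18b were also lost without either CX45 library, and those of Mrps5 (adjusted p = 0.0449 in the full fit) and Mrps18a without either CX22 library. All groups share 1 estimate of the spread in this fit. Calls of all genes were not counted with a library left out, here or in the comparisons below.

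**Figure D2:**
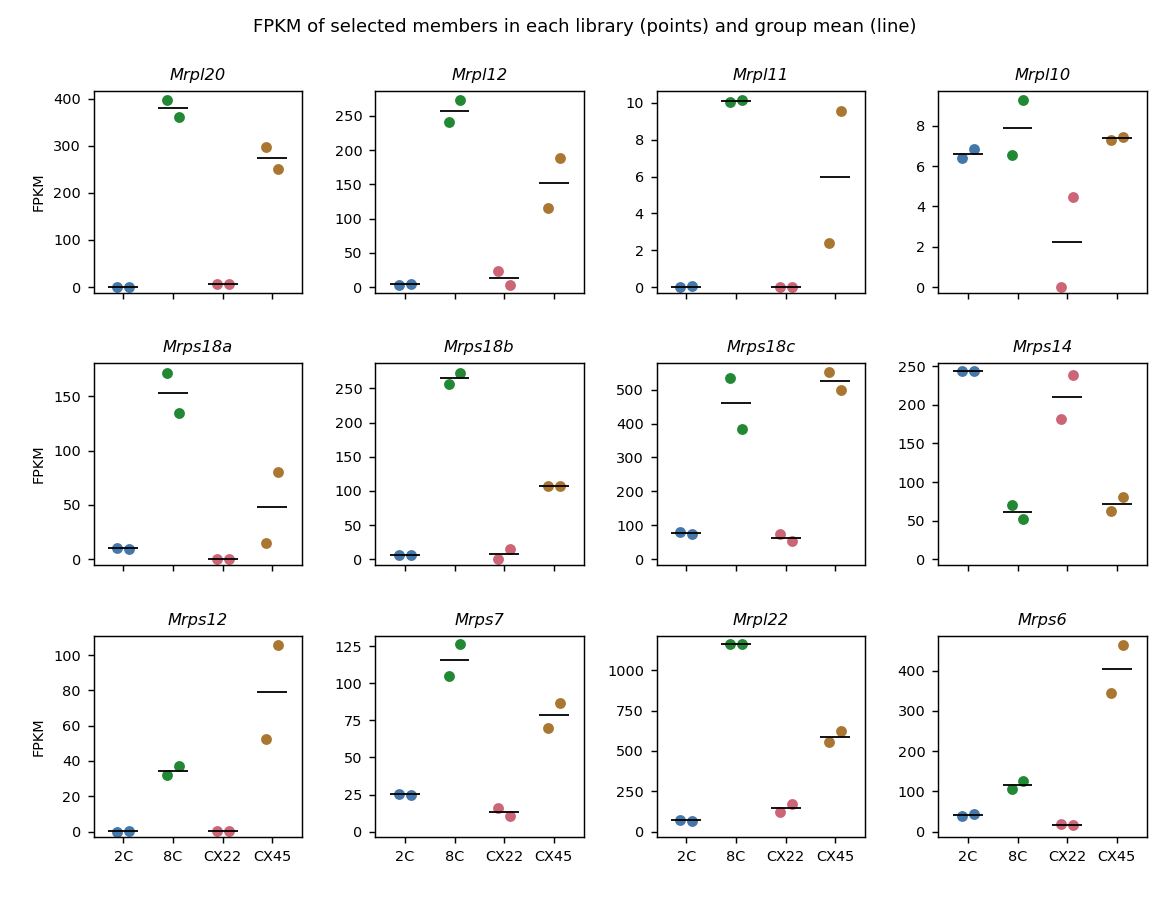
FPKM of 12 members in each library (points, 2 per group; lines are group means), with a separate linear axis for each gene. Most are high in 8C and CX45, Mrpl10 is not higher in 8C than in 2C beyond its spread, and Mrps14 is high in 2C and CX22.

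Set beside the cytosolic ribosome, fewer of the mitochondrial genes rose, and their median was lower. Of 79 cytosolic ribosomal protein genes 75 rose and 0 fell between 2C and 8C, with a median of 4.46 on the log2(FPKM + 1) scale. Summed FPKM of the 78 members stood at 2087 and 2119 in 2C, at 9635 and 8753 in 8C, at 2069 and 2220.1 in CX22, and at 8074 and 8660.0 in CX45. The cytosolic sums were 8723 and 8951, 148013 and 143237, 14201 and 9259, and 97498 and 102037. Per library the cytosolic sum was 4.18 and 4.22 times the mitochondrial one in 2C, 15.4 and 16.4 times in 8C, 6.87 and 4.17 times in CX22, and 12.1 and 11.8 times in CX45. The mitochondrial genes took 0.375% and 0.447% of all FPKM in 2C and 1.39% and 1.31% in 8C, so both ribosomes gained a share of the library and the cytosolic one gained more. The difference between the lists was not tested.

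**Figure D3:**
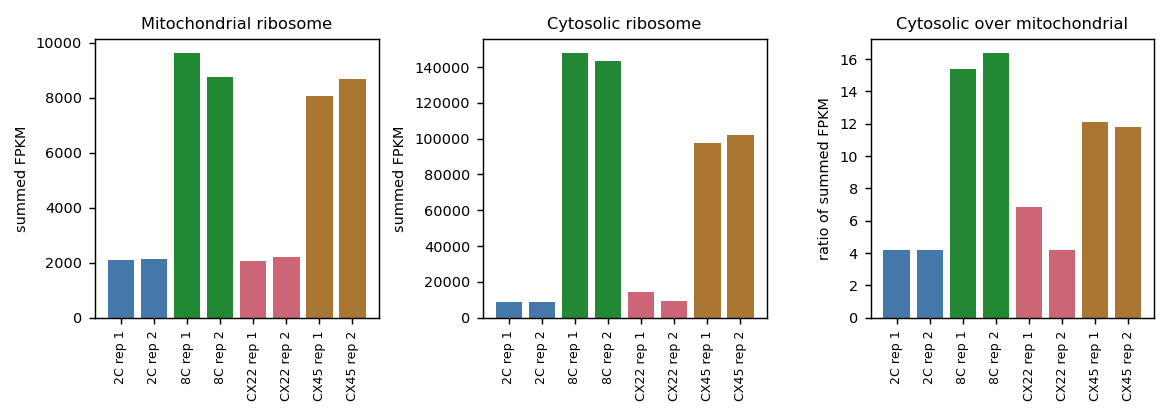
Summed FPKM of the 78 mitochondrial and the 79 cytosolic ribosomal protein genes in each library, and their ratio; bars start at 0 and each is 1 library. The ratio is between 4.17 and 6.87 in the 2C and CX22 libraries and between 11.8 and 16.4 in the 8C and CX45 libraries.

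CX22 and 2C differed in few members. Mrpl20 rose, 0 members fell and 77 did not pass, while 0.598% of all genes tested rose and 3.29% fell (3.89% called). The median member differed by -0.12 and the median of all genes by -0.07. Values of CX22 lay above both 2C values for 23 members, below for 24 and across them for 31, against 21.2% and 33.3% of all genes tested above and below. Mrpl20 was 2.81 ± 0.28 higher (adjusted p = 0.0136), although at 7.33 and 5.77 FPKM it stayed far under its 8C level. Both CX22 libraries listed 7 members at 0, among them Mrps18a, Mrpl36 and Mrps34. Mrps18a, at 10.6 and 9.91 in 2C, gave an adjusted p of 0.181 for this comparison. The call of Mrpl20 was lost without either 8C library (adjusted p up to 0.08). The count was 6 without CX22 replicate 1 (2 higher, 4 lower), 15 without CX22 replicate 2 (3 higher, 12 lower) and 2 without either CX45 library. Of 79 cytosolic genes 3 rose and 0 fell.

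CX45 and 8C differed in no member by limma's threshold. Of the 78 members 0 rose and 0 fell, while 0.463% of all genes tested rose and 0.202% fell (0.665% called), and the count was 0 without any 1 library too. At an unadjusted p under 0.05, 1 member was higher and 3 were lower in CX45, against 1778 and 508 of all genes tested. The median member differed by -0.17 and the median of all genes by 0.31. CX45 values lay above both 8C values for 12 members, below for 30 and across them for 36, against 40.4% and 16.5% of all genes tested above and below. Mrps6, a small-subunit protein with a bacterial homologue, had the lowest adjusted p, 0.0618, and is named after its values were seen. It was listed at 38.2 and 43.2 in 2C, at 105.4 and 126.4 in 8C, at 17.8 and 16.1 in CX22, and at 344.2 and 465.2 in CX45, a difference of 1.78 ± 0.24 between CX45 and 8C. Its CX45 values were the highest of any group. The 3 lower at the unadjusted threshold were Mrpl22, Mrpl24 and Mrps9. Mrpl24, listed at 13.4 and 13.5 in 8C and 4.75 and 3.01 in CX45, differed by -1.59 ± 0.40 (adjusted p = 0.14). Cytosolic genes gave 0 calls in either direction, with a median of -0.69 and 77 of 79 on the lower side.

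CX45 against CX22 shares no library with the comparison of 8C with 2C. Of the 78 members 49 rose, 1 fell and 28 did not pass, while 23% of all genes tested rose and 13.5% fell (36.4% called). The median member was 2.51 higher in CX45, against 0.47 for all genes. Values of CX45 lay above both CX22 values for 62 members, below for 5 and across them for 11, against 41.4% and 23.5% of all genes tested. By class 22 of 30 and 10 of 21 large-subunit genes rose, with and without a bacterial homologue, and 11 of 16 and 6 of 10 small-subunit genes. Mrpl21 rose by 5.99 ± 1.19 (adjusted p = 0.0199), Mrps10 by 5.86 ± 0.31 (adjusted p = 0.00325) and Mrps12 by 5.83 ± 0.46 (adjusted p = 0.00394). Mrpl28, listed at 7.39 and 0 in CX22 and 115.2 and 202.1 in CX45, rose by 5.73 ± 1.06 (adjusted p = 0.0169). Mrpl27, near the peptidyl transferase centre, was listed at 0.28 and 18.9 in CX22 and 289.9 and 237.4 in CX45, and rose by 5.71 ± 1.33 (adjusted p = 0.03). These 2 genes were at 16.2 to 19.9 FPKM in 2C, and their CX22 libraries disagreed. Mrps14 fell by 1.53 ± 0.28 on the same scale (adjusted p = 0.0165).

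The count of members called in CX45 against CX22 was 31 without either 8C library, 25 without CX45 replicate 1 and 23 without CX45 replicate 2, each time among the same 50. The calls of Mrps10 and Mrps12 held in every setting tried. Those of Mrpl21, Mrpl27 and Mrpl28 were lost without any 1 of the 8C or CX45 libraries, and that of Mrps14 without either CX45 library. Of 79 cytosolic genes 74 rose and 0 fell, with a median of 3.25.

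The remaining pairs reuse libraries of the comparisons above and are given as values. CX45 against 2C shares the 2C sample with 8C against 2C: 36 members rose, 1 fell (Mrps14, by 1.76 ± 0.34, adjusted p = 0.0244) and 41 did not pass, with 16.2% of all genes tested risen and 13.6% fallen (29.8% called). The median member was 2.27 higher, against 0.33 for all genes, and 69 members lay above both 2C values and 6 below, against 47.3% and 38.3%. Mrpl20 rose by 8.00 ± 0.28 (adjusted p = 0.00303), Mrps12 by 6.09 ± 0.56 (adjusted p = 0.00548), Mrpl21 by 5.63 ± 1.46 (adjusted p = 0.0462) and Mrpl52 by 5.26 ± 0.45 (adjusted p = 0.00493). Mrps10, listed at 0 in 2C, had an adjusted p of 0.00303. The count of members called was 19 without either 8C library and 22 without either CX45 library, and the calls of Mrpl21 and Mrps14 were lost without any 1 of these 4. CX22 against 8C gave 52 members fallen and 1 risen (Mrps14, by 1.78 ± 0.28, adjusted p = 0.00921), with 19.9% of all genes tested risen and 21.4% fallen (41.3% called). The median member differed by -2.78, against -0.05 for all genes, and 1 member lay above both 8C values and 66 below, against 31.5% and 38.3%. Mrpl21 fell by 6.40 ± 1.19 (adjusted p = 0.0142) and Mrpl58 by 6.01 ± 0.76 (adjusted p = 0.00524). Mrps10 fell by 6.08 ± 0.31 (adjusted p = 0.00139), while Mrps18a and Mrpl36, listed at 0 in both CX22 libraries, had adjusted p of 0.00397 and 0.00139. The count was 22 without 8C replicate 1 and 24 without 8C replicate 2. The calls of Mrpl21 and Mrpl58 were lost without 8C replicate 1, and those of Mrpl21 and Mrps14 without 8C replicate 2.

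**Figure D4:**
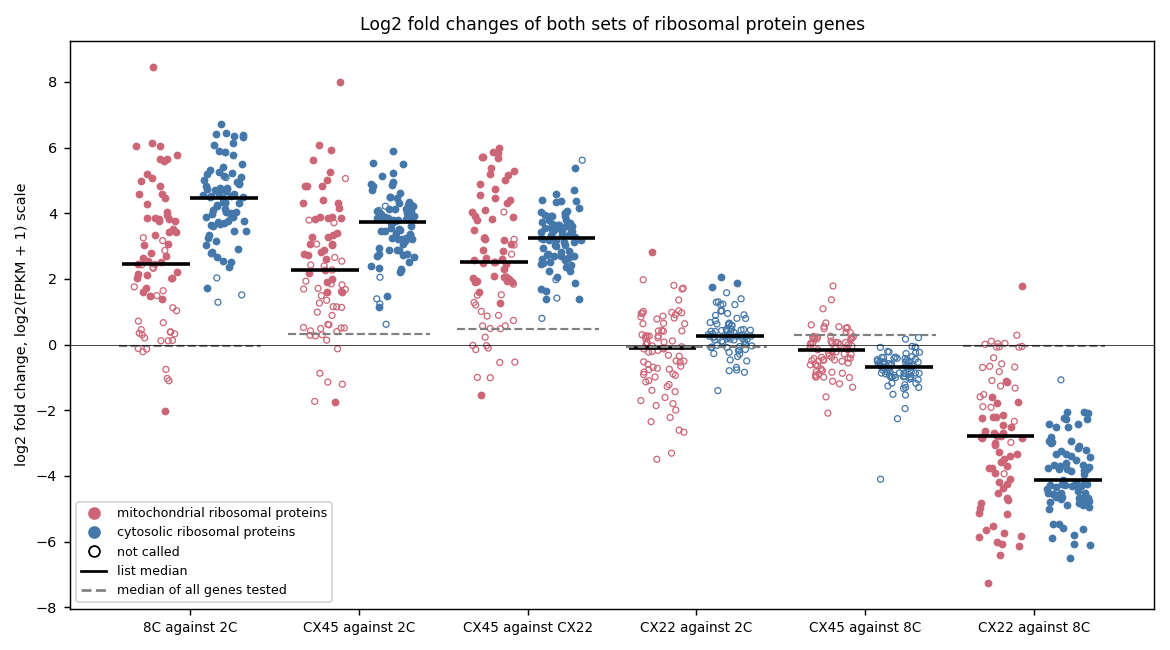
Difference on the log2(FPKM + 1) scale (vertical axis) of each mitochondrial and cytosolic ribosomal protein gene in each of the 6 comparisons (horizontal axis); filled points are called, bars are list medians and dashed lines the median of all genes tested. Medians of the members lie between 2.27 and 2.51 in the first 3 comparisons, at -0.12 and -0.17 in the next, and at -2.78 in the last.

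For 25 members the table holds more than 1 transcript entry. In 20 of them both libraries of 2C and both of 8C agreed within the group on which entry was highest, and in 5 of these the leading entry differed between 2C and 8C. The 5 were Mrpl1, Mrpl3, Mrpl48, Mrps2 and Mrps17, singled out after their values were seen. For Mrpl48 a non-coding entry held 15.5 and 17.0 FPKM in 2C and 0 in 8C, while a coding entry held 0 in 2C and 11.7 and 7.24 in 8C. The coding entry was also the one with a value in CX45, at 7.33 and 6.33. Mrps2 moved from its first coding entry in 2C (17.6 and 16.6) to the second in 8C (9.42 and 16.1), and both CX22 libraries gave 0 for the second. In CX45 the first entry led, at 5.92 and 6.76 against 0 and 1.15, as in 2C. The summed level of Mrpl48 (-0.76 ± 1.48, adjusted p = 0.716) did not pass between 2C and 8C, nor did that of Mrps2. Cufflinks divides shared fragments between entries by estimation, and the switch was not tested.

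**Figure D5:**
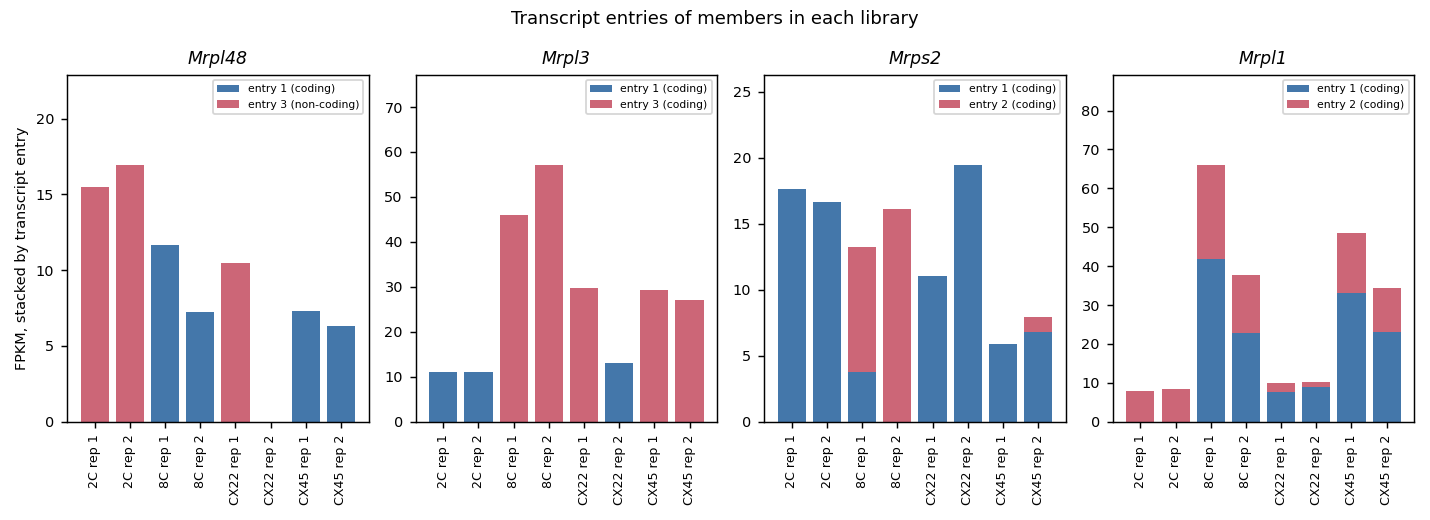
FPKM of the transcript entries of Mrpl48, Mrpl3, Mrps2 and Mrpl1 in each library, stacked so that each bar is the sum of the entries shown. In Mrpl48 the non-coding entry fills the 2C bars at 15.5 and 17.0 and the coding entry fills the 8C bars at 11.7 and 7.24.

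Genes that work with the mitochondrial ribosome were counted in the same way for 8C against 2C, beside the 16.3% and 20.7% of all genes tested that rose and fell. Of 5 ribosomal proteins with other names 2 rose and 0 fell: Gadd45gip1, by 2.82 ± 0.41 (adjusted p = 0.00958), and Aurkaip1, by 1.28 ± 0.33 (adjusted p = 0.0386). Dap3, a small-subunit protein, was listed at 4.78 and 4.98 in 2C and 2.13 and 2.43 in 8C and did not pass. Of 25 assembly and rRNA modification factors 8 rose and 1 fell, with a median of 1.81. Mtg1, a GTPase of large-subunit assembly, was listed at 0 in both 2C libraries and at 13.1 and 32.4 in 8C (adjusted p = 0.00963). Nsun4, which methylates the 12S rRNA, was listed at 47.0 and 45.4 in 2C, at 1.99 and 3.97 in 8C, at 65.1 and 64.7 in CX22, and at 2.82 and 7.85 in CX45. Like Mrps14 it was high in 2C and CX22, and it fell by 3.61 ± 0.64 (adjusted p = 0.0153). Ddx28, an RNA helicase of assembly, was listed at 0 in both 2C libraries and at 7.54 and 10.6 in 8C (adjusted p = 0.0106).

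Of 15 genes, called translation factors here although Lrpprc, Slirp and Oxa1l are among them, 4 rose and 10 did not pass. The remaining one, Gfm2, is described without a test. Tufm, the elongation factor that brings aminoacyl-tRNA to the ribosome, was listed at 0 in both 2C libraries, at 32.9 and 50.7 in 8C, at 0 and 0.734 in CX22, and at 12.4 and 25.7 in CX45 (adjusted p = 0.00679). Mrrf, the recycling factor, was listed at 0 in both 2C libraries and at 9.84 and 9.21 in 8C (adjusted p = 0.0113). Tsfm, the exchange factor of Tufm, rose by 2.60 ± 0.48 (adjusted p = 0.0168), and Slirp by 2.30 ± 0.58 (adjusted p = 0.0376). Gfm2, which splits ribosomes after termination, was listed at 2.43 and 2.45 FPKM in 2C and at 0 in every other library. It passed the filter on low values through 2C alone, which fixed the direction, so nothing is read from its calls. Eral1, Mrm2, Mrrf, Mtg1, Rcc1l, Tufm and Mterf1b were under 1 FPKM in every 2C and CX22 library. They passed the filter through 8C and CX45 alone. Their rises are in the counts and shares given here, and nothing is read from their direction either. Of 12 genes of mitochondrial DNA and transcription 2 rose: Polrmt, the mitochondrial RNA polymerase, listed at 0 in 2C and at 7.13 and 5.44 in 8C (adjusted p = 0.045), and Mterf1b, by 1.95 ± 0.34 (adjusted p = 0.0141). Of 8 regulators of nuclear genes for mitochondria 1 rose, Nrf1, listed at 0.626 and 0.37 in 2C, at 11.9 and 19.8 in 8C, at 1.18 and 1.04 in CX22, and at 7.02 and 17.3 in CX45 (3.45 ± 0.69, adjusted p = 0.0205). Risen genes made up 57.7% of the members and 40% of the 5 ribosomal proteins with other names. They made up 32% of the assembly factors and 26.7% of the translation factors. Of these 15 translation factors 6 were lower in 8C, a count that includes Gfm2, whose direction the filter fixed. Risen genes were 16.7% of the genes of mitochondrial DNA and transcription and 12.5% of the regulators, near the 16.3% of all genes tested.

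For CX45 against CX22, where 23% of all genes tested rose, the counts risen and fallen were 4 and 0 of 5 other ribosomal proteins, 11 and 1 of 25 assembly factors, 4 and 0 of 15 translation factors, 3 and 0 of 12 genes of mitochondrial DNA and transcription, and 3 and 0 of 8 regulators. Chchd1, a small-subunit protein, rose by 3.26 ± 0.82 (adjusted p = 0.037), Gadd45gip1 by 3.04 ± 0.34 (adjusted p = 0.00613) and Aurkaip1 by 2.71 ± 0.27 (adjusted p = 0.00543). Mrm3, which methylates the 16S rRNA, rose by 3.69 ± 0.58 (adjusted p = 0.0114), and Nsun4 fell by 3.50 ± 0.53 (adjusted p = 0.0104). Mrrf, listed at 0 in both CX22 libraries, was at 13.2 and 23.8 in CX45 (adjusted p = 0.00559), a direction that the filter fixed. Nrf1 rose by 2.53 ± 0.56 (adjusted p = 0.0266). The same lists gave 0 called genes in CX45 against 8C, where only 0.665% of all genes tested were called. In CX22 against 2C, where 3.89% of all genes tested were called, the 1 call was Gfm2, whose direction the filter fixed.

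Markers of other cells also differed between the groups. Cumulus and granulosa markers had summed levels of 7.97 and 9.11 FPKM in 2C, of 0.512 and 0 in 8C, of 5.15 and 0 in CX22, and of 0.141 and 0.568 in CX45. Star and Adamts1, at 3.39 and 3.46 and at 1.86 and 2.38 in 2C, reached no more than 0.548 elsewhere. They passed the filter through 2C alone, so their falls from 2C are not read as results. Sperm markers summed to 19.6 and 18.7, 0 and 0, 42.9 and 33.1, and 0 and 4.91 in the same order, and 0 of the 2 tested were called. The CX22 sums came mostly from different genes. Tnp1 was at 42.2 in replicate 1 and 0 in replicate 2, and Prm2 at 0.655 and 28.7. Blood markers summed to 110.5 and 110.8, 12.3 and 32.0, 33.8 and 84.4, and 302.6 and 360.5. The highest was Hba-a1, at 286.1 and 347.1 in CX45, while Ptprc, which marks white blood cells, was at no more than 0.0701 in any library. Of the 3 blood markers tested, Hba-a1 and Cd74 rose in CX45 against CX22 (adjusted p = 0.034 and 0.0141), and Cd74 fell in CX22 against 8C (adjusted p = 0.0466). Lyz2, a gene of myeloid cells, was listed at 0 in both 8C libraries and in one of 2C, and at 1.91 in the other. It was at 10.2 and 11.8 for CX22 and at 9.61 and 7.45 for CX45. It rose in CX45 against 2C (adjusted p = 0.0255) and in CX22 against 8C (adjusted p = 0.00339). The blood list gave 0 calls in the other 3 comparisons. Their part in the members' differences was not tested.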

How the data were processed

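Per the labels' protocols, 8 mouse embryo libraries were made by Smart-seq and sequenced on a BGISEQ500. HISAT2 (listed as 4.8.2), Cufflinks 2.2.1 and build mm9 are named in the submitters' processing notes. The authors deposited FPKM values, 1 per RefSeq transcript and locus, and 0 columns belonged to no sample.

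Of 41876 transcript entries 41685 matched a symbol; the others held 0.065% to 0.253% of FPKM. FPKM were summed per gene. The 11873 genes that reached 1 FPKM in 2 or more libraries were tested on log2(FPKM + 1) with limma 3.58.1 in R 4.3.3, with a trend in the moderated spread. All 4 groups entered 1 two-sided fit. The 2C libraries were averaged, leaving 7 samples and 3 residual degrees of freedom, and 2C, with 1 sample, took its spread from the rest. Python 3.11.15 was used for the remainder. The fit was also run on simulated data that gave a gene the same spread in every group. That run does not cover the wider spread of CX22, and nothing is concluded from it here.

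Named members were, per comparison, the 5 called with the largest change in each direction at 10 FPKM or more, those against the majority, the 5 highest and 5 lowest by mean, and a set fixed by role. From other lists, up to 3 called genes each were named, besides Gfm2 and Slirp. Members and lists were chosen with earlier results of these data known. Alternatives were another pseudocount, no filter, quantile normalization, the highest entry per gene, separate 2C libraries and a replicate block. In others each library was left out, or both CX22 libraries together. mm9 coordinates are printed from 1. Depth was inferred from single-exon genes, where 97.7% to 99.2% of values lay within 0.05 of whole fragments.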

Additional observations from a re-analysis of the deposited data

How the results depend on the processing

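The number of members called rested on single libraries, and no alternative reversed a called named member. Residual degrees of freedom fall from 3 to 2 when an 8C, CX22 or CX45 library is left out, and the lone library of that group is assumed to vary like the others. Calls of all genes were not counted under the alternatives, so whether a changed count is particular to the members was not tested. With 1 library left out, calls ranged from 15 to 54 for 8C against 2C, 0 to 15 for CX22 against 2C, 22 to 56 for CX22 against 8C, 19 to 51 for CX45 against 2C, 23 to 55 for CX45 against CX22 and 0 to 0 for CX45 against 8C. Median differences then ranged from 2.31 to 2.56, -0.12 to 0.01, -2.78 to -2.68, 2.19 to 2.40, 2.33 to 2.67 and -0.29 to -0.074 in the same order, so the median for CX22 against 2C changed sign (without CX22 replicate 1).

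With the 2C libraries as separate samples, calls were 9 for CX22 against 2C, 2 for CX45 against 8C and 56 for CX45 against 2C. The replicate block with separate 2C libraries gave 8, 1 and 56. The replicate numbers did not pair the libraries: deviations of same-numbered libraries correlated at -0.001 to 0.105. A pseudocount of 0.1 FPKM gave 2 calls for CX22 against 2C and medians of 3.0 for CX45 against CX22, 2.51 for CX45 against 2C and -3.01 for CX22 against 8C. Quantile normalization gave medians of 2.16, 1.98 and -2.52 for these 3 and -0.35 for CX45 against 8C. It moved the median of all genes from 0.47 to 0.06, from 0.33 to 0.11 and from 0.31 to 0 in CX45 against CX22, 2C and 8C. The causes of these shifts were not tested. Depth does not bound the level behind a listed 0, since Mrpl14 and Mrpl21, at 14.8 and 11.1 FPKM in CX22 replicate 2, were listed at 0 in replicate 1.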
